A study of Homo sapiens with 9 samples.

Results

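The nuclear genes for respiratory complexes II, III, IV and V were followed in HepG2 cells, a human hepatocellular carcinoma line, after exposure to TBOEP. TBOEP, or tris(2-butoxyethyl) phosphate, is a phosphate triester that is added to plastics and floor polishes and that slows burning. The members are 39 genes picked by name from 57773 features: 3 of complex II, 8 of complex III, the electron carrier cytochrome c (CYCS), 11 of complex IV, 15 of complex V and ATPIF1, the inhibitor of complex V. They are written with the symbols of the deposited files. Control cultures received 0.1% DMSO alone for 72 h, and the treated cultures received 2.5 µM or 125 µM TBOEP in 0.1% DMSO for 72 h, with 3 libraries in each group. Every library came from its own seeding, RNA isolation and sequencing, and every treated one from its own TBOEP solution. The labels state that neither concentration was cytotoxic. HepG2 is a single tumour-derived line, so the replicates are cultures of that line and not of separate donors.

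Complex II (succinate dehydrogenase) passes electrons from the citric acid cycle to ubiquinone. Complex III hands them from ubiquinol to cytochrome c, complex IV hands them from cytochrome c to oxygen, and the proton gradient built up on the way drives complex V, the ATP synthase. Complexes III, IV and V mix subunits from nuclear genes with subunits from mitochondrial DNA, while all of complex II is nuclear. Nuclear respiratory factor 1 (NRF1), GABP of the ETS family and YY1 are known regulators of many of these nuclear genes, with the PGC-1 proteins as coactivators.

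Promoters of 5 members are shown as the 250 bases before the annotated start, read from a RefSeq table on GRCh38.p14. UQCRQ and COX7C are the members of largest fold change at 125 µM, COX5B and ATP5I belong to complexes IV and V and hold ETS and NRF1 matches, and ATPIF1 fell. Capitals mark matches, on either strand, to the NRF1 palindrome GCGCNNGCGC, the ETS core CCGGAAG or the YY1 core AAGATGG, whose reverse complement is CCATCTT. The windows are chr5:132866392-132866641 (plus strand) for UQCRQ, chr5:86617691-86617940 (plus) for COX7C, chr2:97645812-97646061 (plus) for COX5B, chr4:674277-674526 (minus) for ATP5I and chr1:28235874-28236123 (plus) for ATPIF1.
UQCRQ: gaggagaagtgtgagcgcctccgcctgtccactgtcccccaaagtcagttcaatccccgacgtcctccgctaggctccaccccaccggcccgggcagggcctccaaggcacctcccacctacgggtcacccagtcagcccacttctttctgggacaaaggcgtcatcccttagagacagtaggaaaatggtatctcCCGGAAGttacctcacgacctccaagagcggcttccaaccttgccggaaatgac
COX7C: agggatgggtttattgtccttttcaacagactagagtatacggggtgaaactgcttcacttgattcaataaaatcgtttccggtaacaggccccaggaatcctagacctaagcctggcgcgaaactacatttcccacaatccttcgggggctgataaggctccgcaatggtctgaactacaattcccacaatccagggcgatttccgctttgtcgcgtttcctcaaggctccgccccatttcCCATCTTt
COX5B: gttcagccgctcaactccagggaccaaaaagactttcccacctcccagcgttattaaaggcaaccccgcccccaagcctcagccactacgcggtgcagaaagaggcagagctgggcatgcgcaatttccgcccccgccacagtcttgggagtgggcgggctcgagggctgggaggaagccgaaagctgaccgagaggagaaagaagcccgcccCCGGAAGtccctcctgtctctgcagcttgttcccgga
ATP5I: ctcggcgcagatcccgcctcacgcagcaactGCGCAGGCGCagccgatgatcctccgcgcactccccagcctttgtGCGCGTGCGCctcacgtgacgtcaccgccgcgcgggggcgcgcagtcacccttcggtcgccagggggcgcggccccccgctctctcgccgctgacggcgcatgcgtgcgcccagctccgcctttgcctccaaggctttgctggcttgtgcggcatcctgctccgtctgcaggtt
ATPIF1: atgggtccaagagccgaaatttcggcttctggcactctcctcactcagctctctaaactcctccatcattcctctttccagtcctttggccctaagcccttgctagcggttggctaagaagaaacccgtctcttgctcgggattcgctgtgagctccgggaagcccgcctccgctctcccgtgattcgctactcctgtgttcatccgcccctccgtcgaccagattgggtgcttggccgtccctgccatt

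Of the 39 members, 31 matched an entry of that table; ATP5B, ATP5D, ATP5G3, ATP5J2, COX6C, CYC1, SDHC and UQCRB did not. In the table's window of 300 bases, which adds 50 bases after the start, the ETS core was found in 12 of the 31 (38.7%), against 10.7% of all 27305 promoters in the table. The YY1 core was found in 9 (29.0%), against 6.06% of all promoters, and the NRF1 palindrome in 7 (22.6%), against 8.78%. At least 1 of these motifs was found in 21 (67.7%), against 22.5% of all promoters. ATP5I held all of them, and its ETS and YY1 matches lie in the 50 bases after the start. ATPIF1 held none, and neither did ATP5G1, COX7A2 and ATP5E, whose RNA rose. A match of letters is a description of the sequence and does not show that a factor binds there.

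The libraries held 2480964 to 11885877 reads assigned to genes, and 12901 genes, all 39 members among them, had enough reads to be tested. The libraries numbered 3 at 2.5 and 125 µM were the shallowest, with 2480964 and 2670690 reads. On the first principal component of all tested genes, which held 55.0% of the variance, controls lay between 23.0 and 47.5 and the 125 µM libraries between -37.7 and -29.1. At 2.5 µM the libraries lay at 8.2, 8.1 and -16.6. Reads from introns of nuclear genes, which may come from unspliced RNA, made up 7.24, 7.22 and 6.14% of reads in the controls, 7.74, 5.33 and 4.93% at 2.5 µM, and 5.504, 5.28 and 4.91% at 125 µM. All 10 hepatocyte markers examined had reads, with a summed level of 68830 to 85130 CPM (read counts relative to library size, here without TMM scaling) in controls, 56020 to 70020 at 2.5 µM and 41970 to 48980 at 125 µM. Of the 6 leukocyte markers PTPRC, CD3E and MS4A1 were at 0 in every library, while LYZ had most of that list's reads; of the 4 fibroblast markers COL1A2 was at 0. Levels below are shares of a library's RNA, so in these bulk libraries a change in RNA per cell and a change in the make-up of the culture cannot be told apart.

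At 125 µM most of the nuclear subunit genes rose. Of the 39 members 30 were higher and 2 lower than in controls at an adjusted p under 0.05, and 7 did not pass (edgeR's quasi-likelihood test with Benjamini-Hochberg adjustment over 12901 genes). Over all tested genes the same rule called 20.3% higher and 19.9% lower. The median log2 fold change was 0.50 over the members and 0.00 over all tested genes. In 33 members every 125 µM library lay above every control, as it did in 25.6% of all genes, and in 2 members every one lay below, as in 25.2% of all genes. The rises were moderate in size: 15 of the 30 exceeded 1.5-fold, and the largest, of UQCRQ, was a log2 fold change of 1.41.

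**Figure D1:**
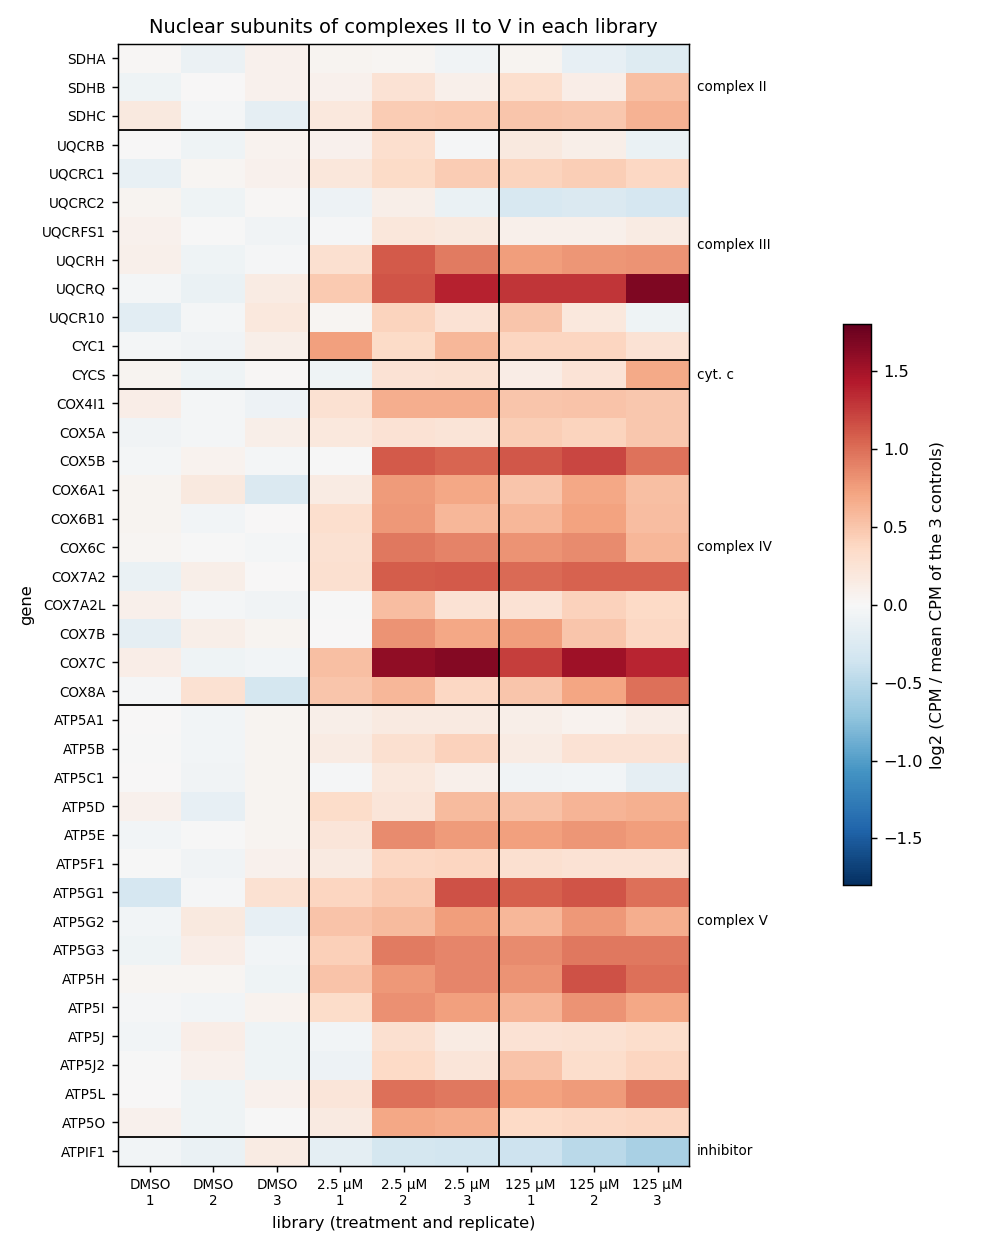
Level of each member (rows, by complex) in each of the 9 libraries (columns, by treatment), as log2 of the TMM-scaled CPM over the mean of the 3 controls; red is above and blue below that mean. Libraries 2 and 3 at 2.5 µM and all at 125 µM are red for most members, while the first 2.5 µM library is paler, with a median ratio to the control mean of 1.14.

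**Figure D2:**
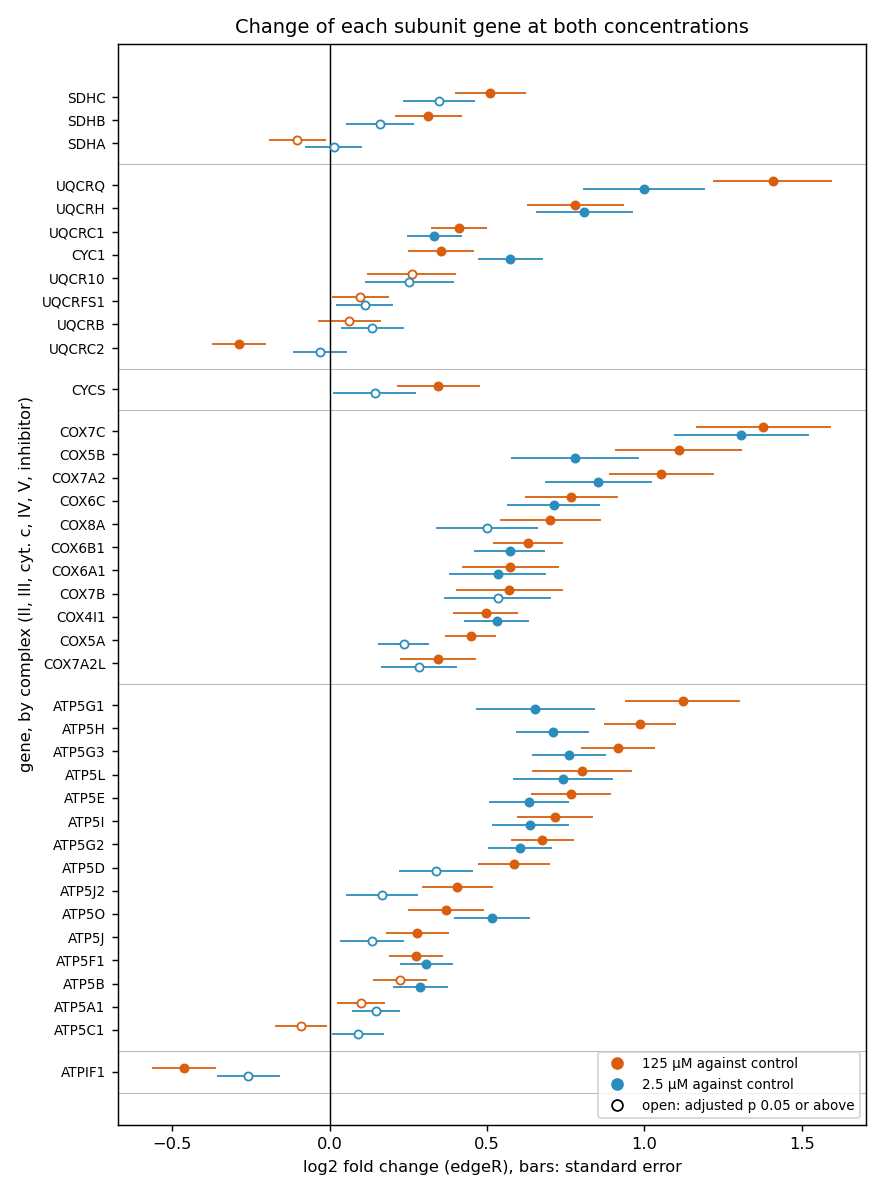
Log2 fold change against control of each member at 125 µM (orange) and 2.5 µM (blue), with standard errors; filled points passed an adjusted p of 0.05 in edgeR's quasi-likelihood test, open points did not. Within each complex the genes are ordered by the change at 125 µM, and all 11 genes of complex IV are filled at that concentration.

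In complex II, whose subunit SDHD is not among the members, 2 of the 3 members rose at 125 µM. At 2.5 µM all 3 log2 fold changes, 0.01 to 0.35, missed the threshold. On the CPM scale, from here on with TMM scaling, its 3 members summed to 276 ± 11.8 in controls, 293 ± 9.97 at 2.5 µM and 293 ± 16.4 at 125 µM. Errors on levels are SD over n = 3 libraries. SDHA, the flavoprotein that oxidises succinate (chromosome 5, 218356 to 256815 on hg19), had 188, 172 and 195 CPM in controls, 192, 190 and 177 at 2.5 µM, and 191, 167 and 157 at 125 µM. The groups overlapped, and neither concentration passed the test (log2 fold change -0.10 ± 0.09 SE at 125 µM, adjusted p = 0.391). SDHC, a membrane anchor (chromosome 1, 161284047 to 161332984), had 40.2, 34.8 and 31.8 CPM in controls, 40.5, 49.1 and 49.3 at 2.5 µM, and 50.2, 50.0 and 55.1 at 125 µM. Every 125 µM library was above every other library, and SDHC rose by 0.51 ± 0.11 on the log2 scale against control (adjusted p = 0.00246). At 2.5 µM SDHC had a log2 fold change of 0.35 ± 0.11 (adjusted p = 0.06). SDHB, the iron-sulphur subunit (chromosome 1, 17345217 to 17380665), had 51.9, 55.2 and 57.7 CPM in controls, 58.2, 65.7 and 58.6 at 2.5 µM, and 68.0, 59.9 and 79.7 at 125 µM. SDHB rose at 125 µM by 0.31 ± 0.11 (adjusted p = 0.0295), a call lost without library 1 or 3 at 125 µM or without control 1. Introns held 8.74% of the SDHB reads, and with exon reads alone the call was lost (log2 fold change 0.27, adjusted p = 0.0531 in edgeR's test). DESeq2's Wald test (adjusted p = 0.0595) and limma on the quantile-normalised signal (adjusted p = 0.0526) did not call SDHB at 125 µM either.

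Complex III held the member with the largest rise, UQCRQ, and 1 of the 2 that fell, UQCRC2. Of its 8 members 4 rose at 125 µM (UQCRC1, UQCRH, UQCRQ and CYC1) and 3 did not pass; the same 4 rose at 2.5 µM. UQCRQ, a small subunit (chromosome 5, 132202252 to 132203723), had 20.5, 19.4 and 23.3 CPM in controls, 29.4, 46.3 and 55.3 at 2.5 µM, and 51.6, 51.4 and 67.5 at 125 µM. Both treated groups lay wholly above the controls, with log2 fold changes of 1.41 ± 0.19 at 125 µM (adjusted p = 7.0e-05) and 1.00 ± 0.19 at 2.5 µM (adjusted p = 0.00891). UQCRH, the hinge protein near cytochrome c1, rose by 0.78 ± 0.15 at 125 µM and 0.81 ± 0.15 at 2.5 µM. CYC1, cytochrome c1 itself, rose by 0.35 ± 0.10 at 125 µM, a call lost without library 2 at that concentration, and by 0.57 ± 0.10 at 2.5 µM. Its mean was 83.8 ± 5.24 CPM in controls, 125 ± 17.2 at 2.5 µM and 106 ± 5.40 at 125 µM, and the highest of all 9 values, 140 CPM, was that of the first 2.5 µM library.

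The paired core proteins UQCRC1 and UQCRC2 went in opposite directions at 125 µM. UQCRC1 (chromosome 3, 48636435 to 48648409) had 165, 185 and 190 CPM in controls, 208, 228 and 246 at 2.5 µM, and 238, 245 and 232 at 125 µM, and rose by 0.41 ± 0.09 at 125 µM (adjusted p = 0.00207) and 0.33 ± 0.09 at 2.5 µM (adjusted p = 0.0278). Neither treated group overlapped the controls, and the call at 2.5 µM was lost without library 2 or 3 at that concentration or without control 1. UQCRC2 (chromosome 16, 21963981 to 21994981) had 662, 602 and 650 CPM in controls, 597, 689 and 585 at 2.5 µM, and 520.2, 531 and 517 at 125 µM. The 125 µM libraries were the lowest of all 9, and UQCRC2 fell by 0.29 on the log2 scale (SE 0.09, adjusted p = 0.0157). The call was lost without any 1 of 4 libraries, with an adjusted p of 0.0527 without library 1 at 125 µM, 0.0534 without library 3 at 125 µM, 0.0582 without control 1 and 0.0523 without control 3. On log2(RPKM + 0.5) the log2 fold change was -0.12 (limma, adjusted p = 0.104) and on log2(RPKM + 0.1) it was -0.12 (adjusted p = 0.103). Introns held 11.3% of the UQCRC2 reads. UQCRB, UQCR10 and the Rieske iron-sulphur protein UQCRFS1 passed in no comparison, with log2 fold changes of 0.06 to 0.26 at 125 µM. CYCS, the carrier between complexes III and IV, had 80.5, 73.6 and 79.0 CPM in controls, 73.4, 92.8 and 93.7 at 2.5 µM, and 85.2, 91.8 and 125 at 125 µM. CYCS was the member nearest the threshold among those called (log2 fold change 0.34 ± 0.13, adjusted p = 0.0493), and 14 of the 21 alternative settings lost the call.

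All 11 nuclear members of complex IV rose at 125 µM, with a median log2 fold change of 0.63. Among the alternative settings the call was lost in 5 for COX7B, 5 for COX7A2L and 2 for COX6A1, and the rest held in all of them. At 2.5 µM 7 of the 11 passed (median 0.53); COX5A, COX7A2L, COX7B and COX8A did not. COX7C, a small subunit of the membrane part (chromosome 5, 85913721 to 85916779), had 56.2, 49.1 and 50.0 CPM in controls, 75.0, 156 and 163 at 2.5 µM, and 123, 149 and 134 at 125 µM. Both treated groups lay above the controls, the first 2.5 µM library by the least. The log2 fold changes were 1.38 ± 0.21 at 125 µM (adjusted p = 0.000189) and 1.31 ± 0.21 at 2.5 µM (adjusted p = 0.00635). COX5B, the zinc-binding subunit on the matrix side (chromosome 2, 98262503 to 98264846), had 79.6, 85.9 and 80.3 CPM in controls, 81.8, 176 and 169 at 2.5 µM, and 178, 188 and 162 at 125 µM. Here the first 2.5 µM library lay within the control range and the other two lay near the 125 µM libraries. COX5B rose by 1.11 ± 0.20 at 125 µM (adjusted p = 0.000657) and by 0.78 ± 0.20 at 2.5 µM (adjusted p = 0.0265), a call lost without library 2 or 3 at 2.5 µM or without control 1 or 3.

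COX4I1, which binds ATP and ADP and joins early in assembly (chromosome 16, 85832239 to 85840650), had 208, 187 and 179 CPM in controls, 231, 301 and 301 at 2.5 µM, and 270.0, 273 and 268 at 125 µM. COX4I1 rose by 0.50 ± 0.10 at 125 µM (adjusted p = 0.00167) and 0.53 ± 0.10 at 2.5 µM (adjusted p = 0.0092), with no overlap with controls. The gene overlaps EMC8 and is uncertain to the extent that it shares that gene's reads. COX7A2L, which helps complexes III and IV join into supercomplexes (chromosome 2, 42560686 to 42652228), had the smallest log2 fold change of complex IV in total gene reads. It had 107, 97.7 and 95.4 CPM in controls, 99.2, 147 and 120 at 2.5 µM, and 120, 134 and 129 at 125 µM, a log2 fold change of 0.35 ± 0.12 at 125 µM (adjusted p = 0.033). That call was lost without library 2 or 3 at 125 µM and without control 2 or 3, and introns held 19.9% of the COX7A2L reads. With exon reads alone its log2 fold change was 0.69 (adjusted p = 0.000471) and on log2(RPKM + 0.5) 0.79, both above COX5A (0.39 and 0.51) and COX4I1 (0.45 and 0.58) in those settings. The remaining members ran at 125 µM up to COX7A2, whose level was 92.1 ± 1.52 CPM at 125 µM against 44.6 ± 3.55 CPM in controls (log2 fold change 1.05 ± 0.17).

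In complex V 12 of 15 members rose at 125 µM (median log2 fold change 0.58) and 10 at 2.5 µM (median 0.52). ATP5A1 and ATP5B encode the alpha and beta chains that form the catalytic ring, and ATP5C1 the gamma shaft that turns within it; these 3 are the members of complex V that did not pass at 125 µM. ATP5A1 (chromosome 18, 43664110 to 43684300) had 531, 508 and 545 CPM in controls, 569, 593 and 591 at 2.5 µM, and 567, 551 and 581 at 125 µM (log2 fold change 0.10 ± 0.08 at 125 µM, adjusted p = 0.314). The treated libraries all lay above the controls, but by less than edgeR's test could call; limma on log2(RPKM + 0.5) called ATP5A1 at 125 µM (log2 fold change 0.16, adjusted p = 0.0126). ATP5B (chromosome 12, 57031959 to 57039798) had 478, 463 and 493 CPM in controls, 530.5, 584 and 640 at 2.5 µM, and 531, 570 and 574 at 125 µM. ATP5B passed at 2.5 µM (log2 fold change 0.29 ± 0.09, adjusted p = 0.0451), a call lost in 13 of 21 alternative settings, and had 0.22 ± 0.09 at 125 µM (adjusted p = 0.0521), where upper-quartile scaling (adjusted p = 0.0326), both RPKM settings (0.018 and 0.0191), the quantile-normalised signal (0.0305) and leaving out library 1 or 3 at 2.5 µM (0.0242 and 0.041) did call it. ATP5C1 had a log2 fold change of -0.09 ± 0.08 at 125 µM.

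ATP5G1, ATP5G2 and ATP5G3 encode the same mature c subunit, which forms the rotating membrane ring, behind different import sequences, and all 3 rose at both concentrations. ATP5G1 (chromosome 17, 46970127 to 46973233) had the largest change of complex V, with 11.2, 13.7 and 16.7 CPM in controls, 18.1, 19.2 and 30.7 at 2.5 µM, and 29.1, 30.4 and 27.5 at 125 µM. No treated library overlapped the controls, with log2 fold changes of 1.12 ± 0.18 at 125 µM (adjusted p = 0.000285) and 0.65 ± 0.19 at 2.5 µM (adjusted p = 0.0399). The call at 2.5 µM was lost without library 3 at that concentration, without control 1 and without any single 125 µM library. ATP5G3 rose by 0.92 ± 0.12 at 125 µM and 0.76 ± 0.12 at 2.5 µM, and ATP5G2 by 0.68 ± 0.10 and 0.60 ± 0.10 in the same order. Of the stalk subunits, ATP5H (subunit d) rose by 0.99 ± 0.11 at 125 µM and 0.71 ± 0.12 at 2.5 µM, while ATP5F1 (subunit b), ATP5J (factor 6) and ATP5O (the oligomycin sensitivity protein) rose by 0.27, 0.28 and 0.37 at 125 µM. These last 3 calls depended on single libraries: that of ATP5F1 was lost without library 2 at 125 µM or control 1 or 2, that of ATP5J without any 125 µM library or control 1 or 3, and that of ATP5O without any 125 µM library or control 2 or 3. With all libraries, the ATP5J call was also lost with exon reads, without a filter and under DESeq2's Wald test. ATP5L and ATP5I (subunits g and e, which lie where synthase dimers meet) rose by 0.80 ± 0.16 and 0.72 ± 0.12 at 125 µM, and ATP5E (epsilon) by 0.77 ± 0.13. ATP5A1, ATP5E, ATP5F1, ATP5H, ATP5I, ATP5J, ATP5J2, ATP5O and, in complex IV, COX6C share part of their span with another tested gene, so their counts are uncertain to that extent.

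ATPIF1, which binds the synthase and stops it from hydrolysing ATP, fell at 125 µM. It had 49.7, 47.3 and 56.95 CPM in controls, 45.3, 41.3 and 40.8 at 2.5 µM, and 39.4, 36.7 and 34.1 at 125 µM (chromosome 1, 28562620 to 28573417). The groups did not overlap in this order, every 125 µM library lying below every 2.5 µM library and every 2.5 µM library below every control. The fall was by 0.46 on the log2 scale (SE 0.10, adjusted p = 0.00249); at 2.5 µM its log2 fold change was -0.26 ± 0.10 (adjusted p = 0.11). Introns held 6.08% of its reads.

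Summed over their members, complexes IV and V had the larger increases over control. Complex IV summed to 763 ± 19.1 CPM in controls, 1171 ± 254 at 2.5 µM and 1241 ± 39.1 at 125 µM. Complex V summed to 2081 ± 38.1, 2672 ± 284 and 2689 ± 54.2 CPM in the same order, and complex III to 1323 ± 49.3, 1518 ± 118 and 1408 ± 35.5 CPM (mean ± SD, n = 3 each). Sums weigh abundant genes most. UQCRC2, which fell, had a mean of 638 CPM in controls and 523 at 125 µM, and SDHA of complex II had 185 and 172. The median log2 fold change at 125 µM, which weighs each member alike, was 0.31 in complex II and 0.31 in complex III. The share of gene reads that fell on the 39 genes was 0.448% in controls, 0.576% at 2.5 µM and 0.586% at 125 µM. The SD at 2.5 µM was several times that of the other groups for complexes IV and V; in complex IV the first library summed to 879 CPM and the other two to 1345 and 1289 CPM.

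**Figure D3:**
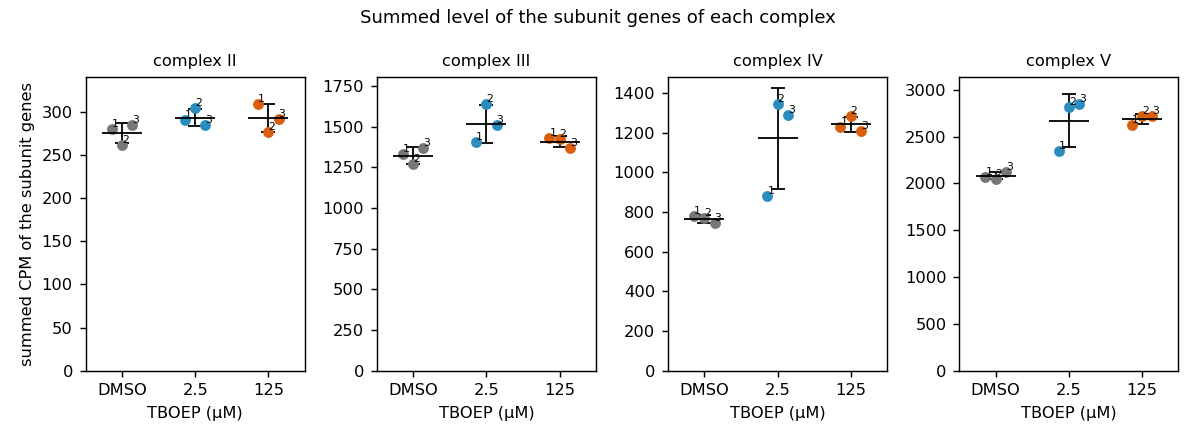
Summed CPM of the nuclear subunit genes of each complex (vertical axis, from 0) by TBOEP concentration; points are libraries with their replicate number, bars the mean and SD of 3 libraries. In complex IV all treated libraries lie above the controls, and library 1 at 2.5 µM, at 879 CPM, lies nearest to them.

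At 2.5 µM 21 of the 39 members rose and none fell, where 6.02% of all tested genes were higher and 5.03% lower. DESeq2's Wald test called none lower either. At an unadjusted p under 0.05, 27 members were higher and 1 lower, and 27.4% of all genes had such a p. The median log2 fold change over the members was 0.50, and -0.01 over all tested genes. Groups did not overlap in 25 higher members, where 14.4% of all genes were higher without overlap, and in 1 lower member, where the share was 13.8%. Of the 21 rises 20 were also called at 125 µM; both comparisons use the same 3 controls. The first 2.5 µM library stood apart: it was the lowest of its group in 32 of the 39 members, and 26 members lay above the highest control in it, against 37 and 35 in libraries 2 and 3. Its median ratio to the control mean was 1.14, against 1.39 and 1.48 in the other two and 1.41, 1.41 and 1.45 at 125 µM. Its intron share, 7.74%, was the highest of all 9 libraries, while libraries 2 and 3 had 5.33 and 4.93%; the part of unspliced RNA in the result was not tested. Without this library 24 members were called higher at 2.5 µM, and without control 1, the deepest control, 12 were. Over all tested genes the higher calls were 776 with every library, 860 without the first 2.5 µM library and 174 without control 1. With the third library of each group left out, a choice made after seeing the data, none of the 13440 genes then tested was called at 2.5 µM, members included, and 23 members were called higher at 125 µM.

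Between the concentrations, no member passed the test. At an unadjusted p under 0.05, 6 members were higher and 3 lower at 125 µM than at 2.5 µM, and 29.7% of all genes had such a p; the adjusted test called 7.48% of all genes higher and 7.44% lower. DESeq2's Wald test called UQCRC2 lower and no member higher. The median log2 difference was 0.06 over the members. The libraries at 125 µM lay above those at 2.5 µM without overlap in SDHC and COX5A (16.9% of all genes) and below them in UQCRC2, ATP5C1 and ATPIF1 (15.9% of all genes). UQCRC2 had the smallest adjusted p, 0.0594, at a log2 difference of -0.26 ± 0.09. ATP5G1 had the largest difference, 0.47 ± 0.17 (adjusted p = 0.0822), and UQCRQ had 0.41 ± 0.18 (adjusted p = 0.136). Group means stood in the order control, 2.5 µM, 125 µM from low to high in 25 members, and 2.5 µM was highest in 12, among them UQCRH, CYC1, COX4I1 and ATP5O. With standard errors of 0.08 to 0.20 on the log2 scale, small differences between the concentrations were not detectable with 3 libraries in each group. The missing calls do not show that the concentrations acted alike.

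Members with short coding sequences tended to have the larger fold changes. The coding length of the members had a median of 387 bases (153 to 1992), and 64.1% of them had at most 500 coding bases, against 8.14% of the 11346 tested genes with a coding length. Of the 25 members of at most 500 bases 22 rose at 125 µM, with a median log2 fold change of 0.70; over all 924 tested genes of that length the median was 0.30 and 41.9% rose. Of the 9 members of 500 to 1000 bases 7 rose, with a median of 0.35, where all 2511 genes of that length had a median of 0.12 and 26.3% rose. Of the 5 members above 1000 bases UQCRC1 alone rose at 125 µM, with a median of 0.10 over the 5. All 4406 genes of 1000 to 2000 bases had a median of 0.01 and 19.9% rose, so the count in these members is near that share. Across the 39 members, which share libraries and are not independent, the correlation of log2 coding length with log2 fold change was r = -0.54 (Spearman's rho = -0.54) at 125 µM and r = -0.49 (rho = -0.48) at 2.5 µM. Over all tested genes it was -0.15 and -0.21. With the exon length of the files, which joins all annotated transcripts of a gene, r was -0.27 over the members at 125 µM and -0.04 over all genes. Whether RNA length as such, in the cells or in library preparation, has a part in the result was not tested.

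**Figure D4:**
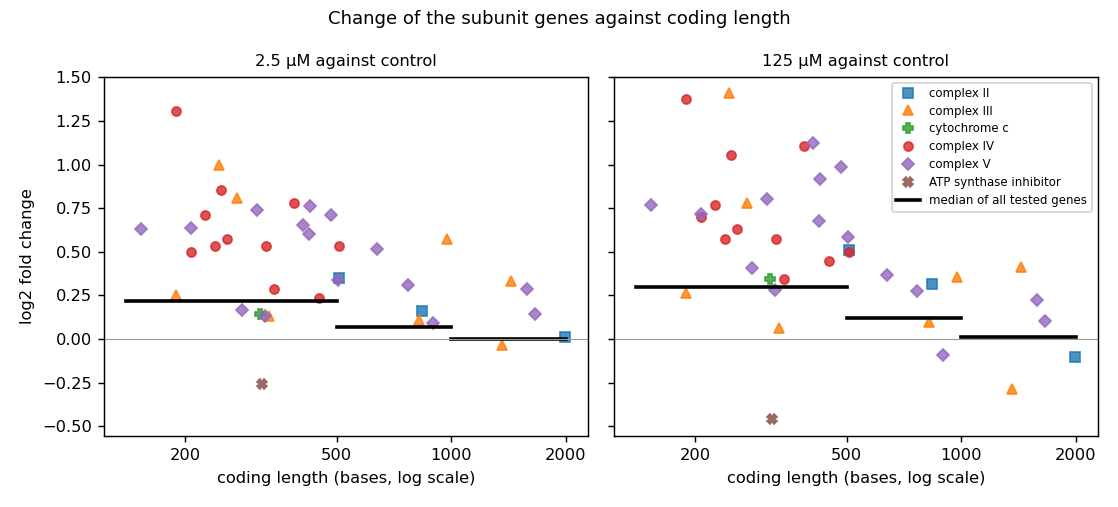
Log2 fold change of each member (points, by complex) against its coding length (log axis) at 2.5 µM and 125 µM; black lines are the median of all tested genes in the length ranges up to 500, 500 to 1000 and 1000 to 2000 bases. Shorter members tend to lie higher, with COX7C and UQCRQ at the top, and ATPIF1 is the short member below 0. The order is loose: at 125 µM ATP5E, the shortest at 153 bases, has 0.77, UQCR10 (189 bases) 0.26 and ATP5G1 (408 bases) 1.12.

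Set per length, the members differed widely within a complex. On the authors' RPKM scale (reads in exons for a given exon length and depth), ATP5B had 245 ± 10.9 at 125 µM against 200.2 ± 6.17 in controls, the highest level of the 39, and ATP5G1 had 11.1 ± 0.51 at 125 µM against 5.11 ± 1.05 in controls, the lowest in controls. In complex IV, COX7C had 67.8 ± 6.48 RPKM at 125 µM against 24.9 ± 1.18 in controls, and COX6B1, which lies where complex IV forms dimers, had 100.4 ± 5.38 against 61.8 ± 0.285. These levels rest on the exon lengths of the files, which join all annotated transcripts, so the ranks depend on the annotation too. For ATP5G1 that length is 2615 bases against 408 coding bases, and for COX7C it is 1993 against 189. For UQCRB and UQCRQ that length, 9715 and 1472 bases, is the whole span of the gene. Their levels in controls, 19.1 ± 0.613 and 13.8 ± 1.18 RPKM, are therefore set low by the annotation.

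Subunit genes of the same complexes outside the 39 were examined too. Of 12 further subunit genes, 10 were in the files under their symbols. SDHD of complex II and UQCR11 of complex III were not found under theirs, so the counts and sums above leave them out. Of the 10, 4 had enough reads, and all 4 rose at 125 µM and 3 at 2.5 µM. NDUFA4, a subunit of complex IV despite its name, rose by 0.89 ± 0.13 at 125 µM and 0.69 ± 0.13 at 2.5 µM. USMG5 and C14orf2, small membrane proteins of the ATP synthase, rose by 0.88 ± 0.18 and 0.68 ± 0.13 at 125 µM and by 0.71 ± 0.18 and 0.48 ± 0.13 at 2.5 µM. ATP5S, a factor associated with the synthase, rose by 0.71 ± 0.18 at 125 µM and had 0.60 ± 0.19 at 2.5 µM (adjusted p = 0.051). USMG5 overlaps TAF5, and ATP5S overlaps CDKL1, so both counts are uncertain to that extent. The tissue-specific forms COX4I2, COX6A2, COX6B2, COX7A1, COX7B2 and COX8C had 0 to 19 reads over all 9 libraries and were not tested.

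Complexes III to V also contain subunits encoded in mitochondrial DNA, here MT-CYB of complex III, MT-CO1, MT-CO2 and MT-CO3 of complex IV and MT-ATP6 and MT-ATP8 of complex V. At 125 µM against control these 6 had log2 fold changes of 0.02 to 0.24 with adjusted p of 0.104 to 0.918. At 2.5 µM all 6 had values below 0, from -0.44 to -0.15, and MT-ATP8 passed (-0.44 ± 0.10, adjusted p = 0.0118). Between 125 and 2.5 µM 5 of the 6 were higher at 125 µM, all but MT-CYB (0.31 ± 0.10, adjusted p = 0.0566), with 0.30 ± 0.10 for MT-CO1, 0.38 ± 0.11 for MT-CO2, 0.39 ± 0.11 for MT-CO3, 0.37 ± 0.11 for MT-ATP6 and 0.65 ± 0.10 for MT-ATP8. MT-ATP6 overlaps MT-ATP8 and MT-CO3. For every 100 reads of the mitochondrial subunits of complex IV there were 2.52, 2.62 and 2.12 reads of its nuclear subunits in controls, 3.20, 4.71 and 4.86 at 2.5 µM, and 3.33, 3.59 and 3.79 at 125 µM. In complex V that number was 39.1 ± 5.04 in controls, 61.9 ± 8.58 at 2.5 µM and 46.2 ± 3.20 at 125 µM (n = 3 each). In complex III it was 57.7 ± 3.48 in controls, 81.4 ± 10.5 at 2.5 µM and 60.7 ± 3.97 at 125 µM. Both treated groups lay above the controls in complex IV, while in complex V the 125 µM libraries, from 42.8, overlapped the controls, up to 44.6. The 125 µM libraries overlapped the controls in complex III as well.

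Of 35 tested assembly factors, the proteins that build complexes II to V, 15 rose and 2 fell at 125 µM (median log2 fold change 0.30), and 6 rose and 1 fell at 2.5 µM (median 0.25). Over all tested genes 20.3% rose and 19.9% fell at 125 µM, and 6.02% rose and 5.03% fell at 2.5 µM. The counts of falls lie under those shares and are no result about the list. COX20, a chaperone of MT-CO2, fell by 1.03 at 125 µM (SE 0.13, adjusted p = 3.91e-05) and by 0.51 at 2.5 µM (SE 0.12, adjusted p = 0.02). Its mean was 54.0 ± 9.23 CPM in controls, 38.0 ± 3.59 at 2.5 µM and 26.8 ± 2.03 at 125 µM. COX15, which makes the haem of complex IV, rose by 0.80 ± 0.16 at 125 µM, COA6, a copper-handling factor, by 0.72 ± 0.13, and COA1 by 0.55 ± 0.11. COX11, which brings copper to MT-CO1, fell by 0.30 at 125 µM (SE 0.11, adjusted p = 0.0436). COX20 overlaps HNRNPU-AS1, COX11 overlaps STXBP4 and TOM1L1, COX15 overlaps CUTC and COA1 overlaps STK17A, so these counts are uncertain. For comparison, 24 of 35 tested nuclear subunits of complex I rose at 125 µM (median 0.52), and 14 rose at 2.5 µM (median 0.36), with NDUFB5, NDUFV1, NDUFB6 and NDUFA11 at 0.90, 0.58, 1.03 and 1.35 at 125 µM; NDUFB6 overlaps TOPORS-AS1.

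Of 12 regulators of these genes 3 rose (25.0%) and 1 fell at 125 µM, near or under the 20.3% and 19.9% of all tested genes, so the count is no result about the list. PPARGC1A, the coactivator PGC-1 alpha, had 50.5, 49.9 and 53.1 CPM in controls, 60.3, 56.0 and 64.2 at 2.5 µM, and 84.95, 83.7 and 83.7 at 125 µM. Every group lay above the one before it, with a log2 fold change of 0.72 ± 0.08 at 125 µM (adjusted p = 2.58e-05), 0.22 ± 0.09 at 2.5 µM (adjusted p = 0.103) and 0.50 ± 0.08 between 125 and 2.5 µM (adjusted p = 0.00131). PPARGC1B, its relative, rose by 1.41 ± 0.24 at 125 µM at a low level of 5.98 ± 0.405 CPM against 2.32 ± 0.442 in controls, and ESRRA, a nuclear receptor that works with both, by 0.34 ± 0.10. YY1 fell by 0.45 at 125 µM (SE 0.09, adjusted p = 0.00152). NRF1, GABPA and TFAM did not pass in any comparison, with -0.16 ± 0.12, -0.26 ± 0.12 and -0.09 ± 0.09 at 125 µM; GABPA overlaps the member ATP5J, and ESRRA overlaps TRMT112.

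Markers of the liver cell moved with the treatment as well. Of the 10 hepatocyte markers 7 fell at 125 µM (ALB, APOB, AFP, TF, SERPINA1, FGB and FGA) and APOA2 rose, with a median log2 fold change of -0.65. APOA1 and TTR had -0.06 ± 0.10 and 0.18 ± 0.09 at 125 µM. At 2.5 µM APOB and AFP fell and APOA2 and TTR rose. Over all tested genes 19.9% fell and 20.3% rose at 125 µM, and 5.03% fell and 6.02% rose at 2.5 µM. The summed bile duct markers ran from 264 to 297 unscaled CPM in controls, 308 to 343 at 2.5 µM and 378 to 423 at 125 µM. Within that list KRT19 rose by 1.56 ± 0.17 at 125 µM and 0.81 ± 0.18 at 2.5 µM, SOX9 fell by 0.84 (SE 0.14) and 0.55 (SE 0.14) in the same order, and EPCAM had -0.16 ± 0.09 and -0.06 ± 0.08. The summed leukocyte markers ran from 2491 to 2979 unscaled CPM in controls, 2520.0 to 2780.0 at 2.5 µM and 1885 to 2094 at 125 µM. At 125 µM LYZ fell by 0.51 (SE 0.10, adjusted p = 0.00128), CD68 rose by 1.77 ± 0.37 (adjusted p = 0.0017) on 234 reads over all 9 libraries, and CD14, with 94 reads, had 0.57 ± 0.44. The endothelial and fibroblast lists stayed at or under 4.80 and 25.9 unscaled CPM in every library; at 125 µM TIE1 rose by 2.42 ± 0.53 on 76 reads, VWF fell by 2.05 (SE 0.67) on 77 reads, and PDGFRB fell by 0.92 (SE 0.18). APOA2, CD68, LYZ and SOX9 overlap another tested gene. The part of these changes in the result on the respiratory genes was not tested.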

How the data were processed

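RNA-seq libraries came from a stranded polyA kit, per the labels' protocols. With CLC Genomics Workbench the authors mapped paired reads to UCSC hg19 and annotated genes, per the design text of the series. The program's version, and whether it counted by strand, is not given in the sources used here. The authors deposited read counts per gene, not normalised, per the file headers, and RPKM values from exon reads. The deposited signal was quantile-normalised by the authors across libraries. Exon lengths are the deposited ones.

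Total gene reads of 9 libraries in 3 groups were fitted with edgeR 4.0.16 in R 4.3.3 (filterByExpr, TMM, quasi-likelihood test, no covariate); contrasts are two-sided with Benjamini-Hochberg adjustment over 12901 genes and a threshold of 0.05. The edgeR, DESeq2 and limma steps were tested on simulated counts. Fold changes are relative to TMM scaling. Non-unique reads were at most 0.00321% of a library; 27 members have pseudogenes named after them, with 7880 reads on 137 features against 352504 reads on members. File positions are hg19 with 1 added to the start. Coding lengths come from GENCODE canonical transcripts on GRCh37, chosen after the exon lengths proved to join all transcripts.

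The members and lists were chosen with earlier results of these data known. Values in every library are given, for each complex, for the members with the most reads, the largest and the smallest log2 fold change at 125 µM, and those called lower; CYCS was added after its values were seen. Of other lists, all tested members are named where there are at most 10, otherwise up to 4 with the smallest adjusted p at 125 µM; COX11, NRF1, GABPA and TFAM were added after their values were seen. Alternatives were DESeq2 1.42.0 size factors and Wald test, upper-quartile scaling, no filter, a stricter filter (10 reads and 1 CPM in 3 libraries), unique reads, exon reads, limma 3.58.1 on log2(RPKM + 0.5), log2(RPKM + 0.1) and the quantile-normalised signal, the replicate number as a block, and each library left out.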

Additional observations from a re-analysis of the deposited data

How the results depend on the processing

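At 125 µM against control, the count of members called higher, 30 in the main analysis, was 23 to 31 under all alternatives, and 20 of the 32 calls in either direction held in each of them. The count called lower (2) was 1 under both RPKM settings, 1 to 2 with single libraries left out and 0 with library 3 of each group left out. At 2.5 µM the 21 higher calls became 7 under log2(RPKM + 0.5), 0 under log2(RPKM + 0.1), 8 under the quantile-normalised signal, 12 to 24 with single libraries left out and 0 with library 3 of each group left out; log2(RPKM + 0.1) and leaving out library 3 called 0 of all tested genes, so no call could hold in every alternative. Higher calls over all genes, 776 in the main analysis, were 171 under log2(RPKM + 0.5), 170 under the quantile-normalised signal and 174 without control 1. Between 125 and 2.5 µM the higher calls (0) became 3 without a filter (ATP5G1, COX5B, UQCRQ), 1 under each RPKM setting (COX5A), 0 to 2 with single libraries left out and 1 with library 3 of each group left out. The lower calls (0) became 1 under upper-quartile scaling, DESeq2's Wald test and exon reads (UQCRC2 each time) and 0 to 1 with single libraries left out. The cause was not tested.

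Small values changed sign in a few settings. UQCRB at 125 µM was -0.0022 with exon reads, and ATP5C1 at 125 µM was 0.00091 on the quantile-normalised signal. At 2.5 µM SDHA ran from -0.031 (without control 2) to 0.053 with single libraries left out, and was -0.011 without 2.5 µM library 1. UQCRC2 at 2.5 µM was 0.021 with exon reads, 0.072 under log2(RPKM + 0.5) and 0.072 under log2(RPKM + 0.1), and ran from -0.11 to 0.0170 (without 2.5 µM library 3) with single libraries left out; it was 0.031 with library 3 of each group left out.

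Over all tested genes, higher calls made up 50.5% of calls at 125 µM, and 66.5% under log2(RPKM + 0.5). At 2.5 µM they made up 54.5%, against 79.2% under that setting and 74.9% on the quantile-normalised signal. Between the concentrations the shares were 50.1% and 68.8%. With the replicate number as a block, 30 members were higher and 2 lower at 125 µM, 20 were higher at 2.5 µM and 0 differed between concentrations. The numbers share no stated origin, and same-numbered libraries did not deviate together (r from -0.256 to 0.198).

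Limits are 3 cultures of 1 cell line per group, the shallow libraries numbered 3, unknown strand use in counting, and levels relative to all reads.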
